A study of Mus musculus with 6 samples.

Results

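Aminoacyl-tRNA synthetases are the enzymes that load each tRNA with its amino acid, and their genes were examined here in bone-marrow-derived macrophages (BMDMs) with and without excess NaCl. The members were chosen by gene symbol among the protein-coding genes of the authors' annotated table. This rule used no expression value, but it was chosen with earlier results of these data known. It gave 38 genes of the 15903 genes tested, of which 12665 were protein-coding. Of the 38 genes, 21 encode cytosolic enzymes and 17 encode mitochondrial ones. *Tarsl2* was counted with the cytosolic genes in spite of its final digit, and so were *Gars* and *Kars*, which encode the cytosolic and the mitochondrial enzyme from a single gene. All 38 passed the minimum for testing, a summed count of 10, and the lowest count of any member in any library was 23.

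Marrow cells cultured with the growth factor M-CSF mature into the macrophages called BMDMs. Marrow came from 3 Cx3cr1GFP mice on the C57BL/6J background, whose *Cx3cr1* locus carries GFP, so control and treated cells have this allele alike. Cells were grown for 7 days in RPMI medium with 10 ng/ml M-CSF and were then left unstimulated (control, n = 3) or given 62 mM additional NaCl for 24 h (NaCl, n = 3). Cells of the same 3 mice gave both groups, only cells that adhered were collected, and polyadenylated RNA was sequenced, which gives 6 libraries. No library with another osmolyte in place of NaCl was analysed here, so sodium chloride and raised osmolarity as such cannot be told apart. In these bulk libraries, fewer cells of a type and less RNA per cell cannot be told apart either.

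A synthetase recognizes an amino acid, activates it with ATP and transfers it to the matching tRNA, and the ribosome then uses the charged tRNA. The enzymes fall into class I and class II, which have unrelated catalytic domains. In the cytosol of animal cells, several of them are held together with scaffold proteins in the multisynthetase complex, while others work outside it. Mitochondria translate their own small set of messages and use a separate set of enzymes, which are encoded in the nucleus and imported. Many cytosolic synthetase genes are known targets of ATF4, the transcription factor that acts in the amino acid response.

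Total counts per library lay between 8520433 and 20123570 in the control group and between 4088065 and 11610020 in the NaCl group, with the smallest in NaCl replicate 3. Genes without a single count numbered 1235 there and 79 to 309 in the other libraries. The counting did not use strand, so reads from bases that genes on opposite strands share cannot be assigned. All 8 macrophage markers were tested, with a summed level of 15012 to 16353 CPM in control and 23394 to 30923 CPM in NaCl libraries, where CPM is a gene's count relative to its library's TMM-scaled total. Of 34 markers of monocytes, neutrophils, dendritic cells, B cells, T cells, erythroid and stromal cells, 23 were tested, and their summed level was 351 to 389 CPM in control and 298 to 446 CPM in NaCl libraries. No T cell or erythroid marker reached the minimum count, and all 6 dendritic cell markers stayed under 1 CPM in every library. In edgeR, *Lyz2* and the monocyte marker *Ifitm6* were higher past the threshold with and without the mouse as a block, while *Csf1r* was higher and *Mertk* and the neutrophil marker *Mpo* lower only with it. DESeq2 without the block also called *Csf1r* higher and *Mertk* lower, but not *Mpo*. The part of these markers in the results below was not tested.

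With the mouse entered as a replicate block, so that each NaCl library is set against the control library of its own mouse, edgeR's quasi-likelihood test called 10 of the 21 cytosolic genes lower and none higher at an adjusted p-value under 0.05, namely *Aars*, *Nars*, *Yars*, *Cars*, *Tars*, *Eprs*, *Sars*, *Gars*, *Rars* and *Iars*. They fell by between 23.5% for *Iars* and 39.7% for *Aars*. No mitochondrial gene was called in either direction. The standard errors (SE) of the mitochondrial genes ran from 0.12 to 0.25, against 0.12 to 0.13 for the 10 genes called. *Aars2* was not called at a log2 fold change of 0.50 ± 0.18 (SE), while *Iars* was called at -0.39 ± 0.12. The part of the SE in the lack of mitochondrial calls was not tested. In this fit 4.30% of all genes tested were called lower and 4.60% higher, so the 10 of 21 cytosolic genes stood above the background of lower calls, while 0 of 17 mitochondrial genes is near the background in both directions. That background was not matched for level: it holds 2892 genes under 1 CPM in every library, and 0 of the 38 members were that low. Neither set was tested as a whole.

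At least 5 of the 10 calls were lost in each of the fits without the block. In edgeR without it, 0 of the 38 genes passed the threshold, where 0.176% of all genes tested were called lower and 0.478% higher, and limma-voom without it also called 0. With a minimum summed count of 1 in place of 10, edgeR without the block called 5 of the 10 lower, *Aars*, *Cars*, *Nars*, *Tars* and *Yars*. The share of all genes called at that minimum is not given here. At an unadjusted p-value under 0.05, edgeR without the block found 9 cytosolic genes lower and 1 mitochondrial gene higher, beside 6.01% of all genes lower and 6.63% higher. DESeq2 without the block called 3 cytosolic genes lower, *Aars*, *Cars* and *Nars*, and none higher, beside 1.21% of genes lower and 1.91% higher among the 12817 genes to which it gave an adjusted p-value. The log2 fold changes of the 10 genes were alike in both edgeR fits, from -0.74 to -0.40 without the block and from -0.73 to -0.39 with it. Their SE lay between 0.13 and 0.20 without it and between 0.12 and 0.13 with it. For *Nars* the SE was 0.13 without it and 0.12 with it, while the adjusted p-value went from 0.0865 to 0.00153. The part of the SE in the change of calls was not tested. Below, fell is used of genes past the threshold with the block.

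The direction of change was shared by more genes than passed the test. Of the 21 cytosolic genes, 16 had a negative log2 fold change, and 15 were lower in NaCl in 3 of 3 mice, which held for 23.4% of all genes tested. A further 3 cytosolic genes, *Hars*, *Qars* and *Vars*, were higher in 3 of 3 mice, against a background of 20.1%. Of the 17 mitochondrial genes, 2 were lower and 7 higher in 3 of 3 mice. The median log2 fold change was -0.28 for the cytosolic genes and 0.21 for the mitochondrial genes, with or without the block, beside -0.01 for all genes tested without the block and -0.02 with it. The median cytosolic log2 ratio was -0.19 in mouse 1, -0.44 in mouse 2 and -0.32 in mouse 3. The median mitochondrial log2 ratio was 0.16, 0.12 and -0.02, and in mouse 3 a lower value in NaCl was found for 9 of the 17 genes. Without control replicate 1 the mitochondrial median log2 fold change, in edgeR without the block, was 0.089.

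**Figure D1:**
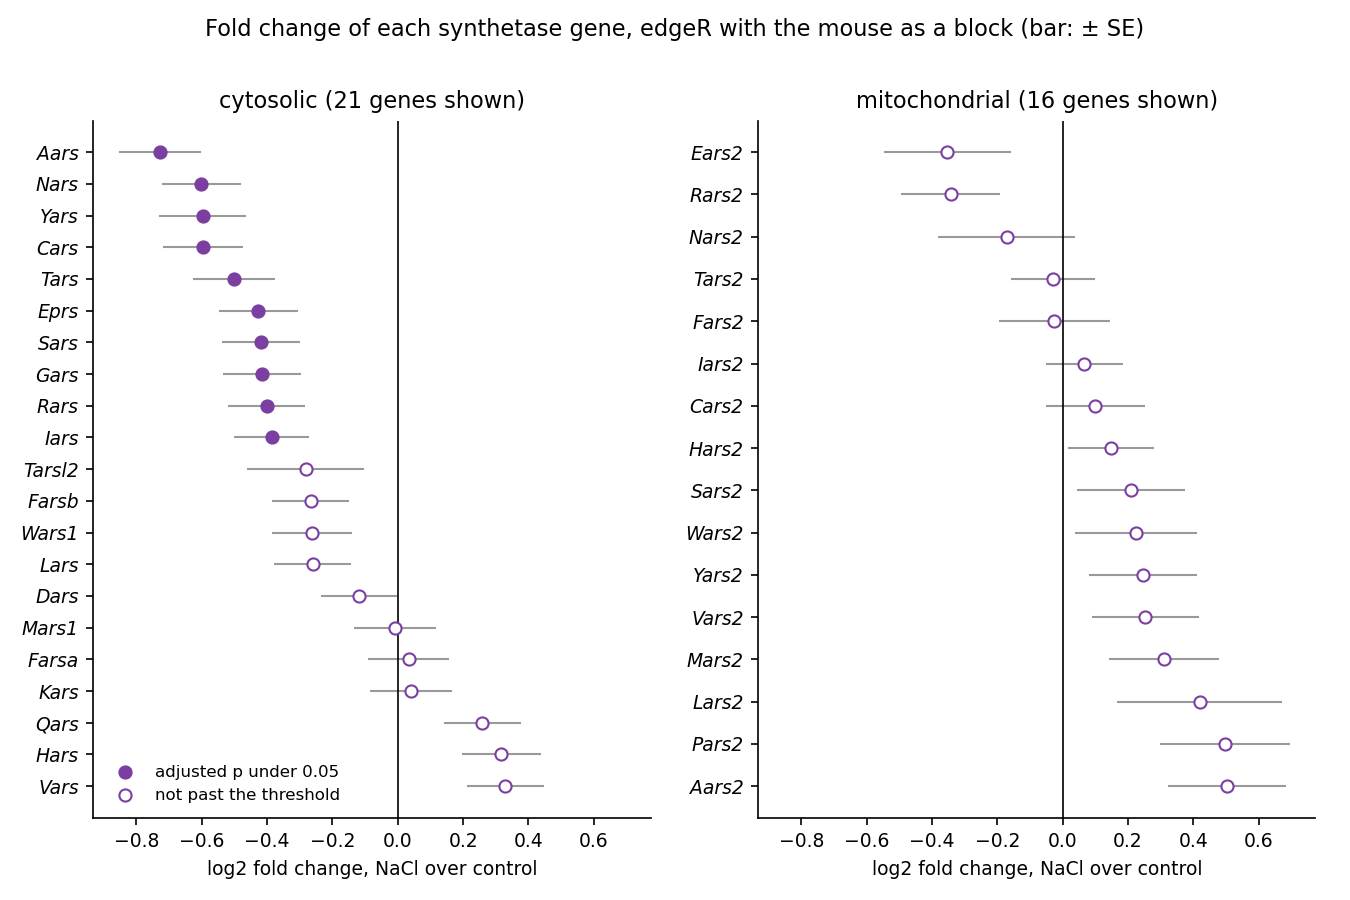
Log2 fold change of each synthetase gene, NaCl over control, from edgeR with the mouse as a block, with 21 cytosolic genes on the left and 16 mitochondrial genes on the right. Points are estimates, horizontal bars are ± SE, and filled points mark an adjusted p-value under 0.05: the 10 filled points are all cytosolic and lie between -0.73 for *Aars* and -0.39 for *Iars*.

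The gene with the greatest fall was *Aars*, which encodes the class II alanyl-tRNA synthetase and lies on chromosome 8 of mm10 from 111033144 to 111057664 on the plus strand. It was measured at 164, 245 and 229 CPM in the control libraries of mice 1, 2 and 3, and at 124, 144 and 113 CPM in their NaCl libraries. Every NaCl library lay below every control library. With the block its log2 fold change was -0.73 ± 0.13 (SE, edgeR, adjusted p = 0.0003), against -0.74 ± 0.17 without it (adjusted p = 0.103). Of its annotated exonic bases, 14.3% also belong to *Exosc6* on the same strand, so some of its counts are uncertain.

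*Nars*, for asparaginyl-tRNA synthetase of class II, had the highest level of all members. Its control libraries held 295, 382 and 342 CPM and its NaCl libraries 232, 217 and 220.4 CPM. The NaCl values were close to one another and did not overlap with the control values. It fell by 34.1%, with a log2 fold change of -0.60 ± 0.12 (SE, edgeR with block, adjusted p = 0.00153), and its adjusted p-value without the block was 0.0865, the lowest of the 10.

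*Yars* encodes tyrosyl-tRNA synthetase, a class I enzyme. It stood at 44.6, 73.5 and 71.7 CPM in control and 38.3, 42.3 and 42.2 CPM in NaCl libraries, so the groups did not overlap, but the control library of mouse 1 lay just above the NaCl values. Its log2 fold change was -0.60 ± 0.13 with the block (SE, edgeR, adjusted p = 0.0038) and -0.63 ± 0.19 without it (adjusted p = 0.204). *Cars*, for cysteinyl-tRNA synthetase of class I, had 65.5, 92.5 and 87.9 CPM in control and 50.1, 53.8 and 57.5 CPM in NaCl libraries. Its groups did not overlap, and it fell by 33.9% (edgeR with block, log2 fold change -0.60 ± 0.12 SE, adjusted p = 0.00197, and 0.137 without the block).

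Among the class II enzymes outside the complex, *Tars* for threonine, *Sars* for serine and *Gars* for glycine fell as well. *Tars* went from 67.0, 113 and 113 CPM to 58.6, 74.3 and 69.0 CPM, and only the control library of mouse 1 overlapped with the NaCl values. *Sars* went from 121, 158 and 143 CPM to 103, 113 and 98.7 CPM, without overlap. *Gars* went from 99.0, 150.1 and 161 CPM to 85.9, 103 and 115 CPM, and again the control library of mouse 1 lay within the NaCl range. In edgeR with the block the log2 fold changes were -0.50 ± 0.13 for *Tars* (SE, adjusted p = 0.00972), -0.42 ± 0.12 for *Sars* (adjusted p = 0.0232) and -0.41 ± 0.12 for *Gars* (adjusted p = 0.026). Without the block their adjusted p-values from edgeR were 0.314, 0.246 and 0.391.

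The other 3 genes that fell encode enzymes of the multisynthetase complex. *Eprs*, whose single protein charges tRNA with glutamate and with proline and so joins a class I and a class II enzyme, had 193, 285 and 258 CPM in control and 158, 173 and 215 CPM in NaCl libraries. *Rars*, for arginyl-tRNA synthetase of class I, had 96.8, 140.3 and 131 CPM in control and 75.9, 95.5 and 108 CPM in NaCl libraries. *Iars*, for isoleucyl-tRNA synthetase of class I, had 114, 184 and 171 CPM in control and 92.8, 135 and 128 CPM in NaCl libraries. For all 3 genes the groups overlapped, because the control library of mouse 1 lay below at least 1 NaCl library of another mouse, while each mouse on its own showed the lower value in NaCl. Their log2 fold changes in edgeR with the block were -0.43 ± 0.12 for *Eprs* (SE, adjusted p = 0.025), -0.40 ± 0.12 for *Rars* (adjusted p = 0.0304) and -0.39 ± 0.12 for *Iars* (adjusted p = 0.0338). Without the block the adjusted p-values from edgeR were 0.349, 0.391 and 0.46.

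**Figure D2:**
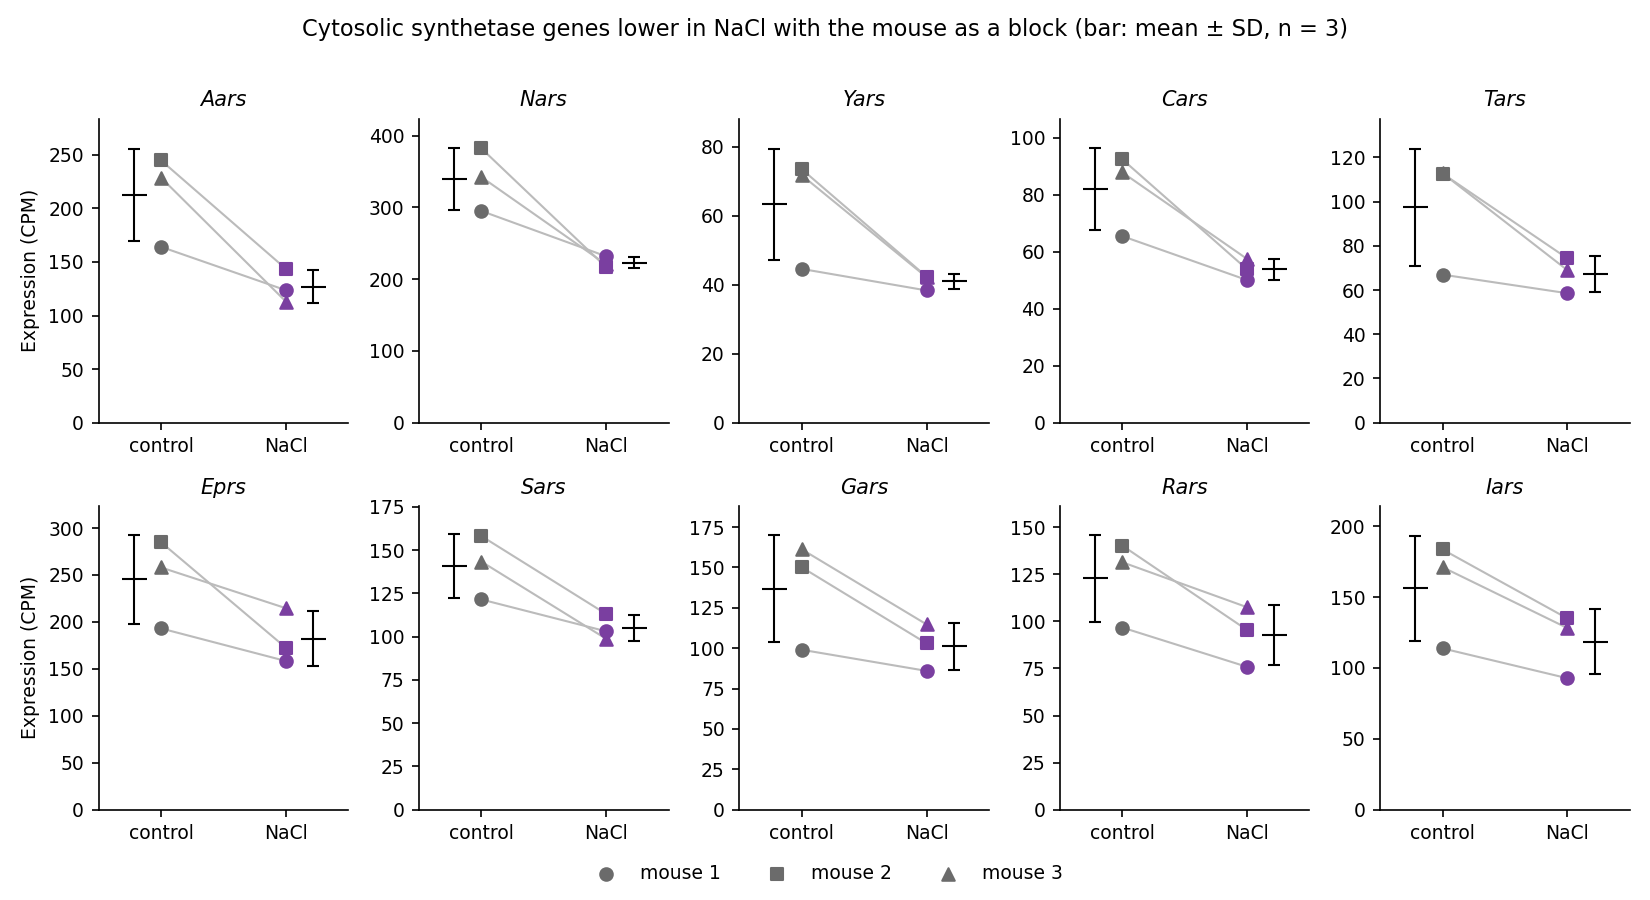
Expression in CPM (vertical axes from 0) of the 10 cytosolic synthetase genes that fell with the mouse as a block, in control and NaCl libraries, with a symbol for each mouse, lines joining the libraries of 1 mouse, and black bars at the mean ± SD of 3 libraries. Every line slopes down, and the control library of mouse 1 is the lowest of the 3 controls in all 10 panels.

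Control replicate 1 stood apart from the other control libraries for these genes. It was the lowest of the 3 control libraries for 20 of the 21 cytosolic genes, and for all 10 that fell, whereas it was the lowest for 40.7% of all genes tested. Without this library, edgeR without the block called *Aars* and *Yars* lower, and the cytosolic median was -0.41. With the block, leaving out both libraries of mouse 1, 2 or 3 left 5, 9 and 5 of the 10 genes past the threshold, with *Aars*, *Nars*, *Yars* and *Cars* among them each time. The share of all genes called in the fits with libraries left out is not given here. What sets control replicate 1 apart was not tested.

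Counted by whether all 3 NaCl libraries lay below all 3 control libraries, 6 of the 21 cytosolic genes were separated, namely *Aars*, *Cars*, *Nars*, *Sars*, *Yars* and *Tarsl2*, against 10.1% of all genes tested. The opposite order, which 8.92% of all genes showed, was found for *Qars* among the cytosolic genes and for 2 mitochondrial genes, *Sars2* among them. Summed over the 10 genes that fell, expression was 1260, 1822 and 1708 CPM in control and 1018, 1150 and 1166 CPM in NaCl libraries. Because the genes were chosen by this contrast, that sum is a description only. The other 11 cytosolic genes summed to 773, 974 and 973 CPM in control and to 799, 1077 and 910 CPM in NaCl libraries, which overlapped. All cytosolic genes together took 0.210% to 0.273% of the counts in control and 0.188% to 0.212% in NaCl libraries, and the groups overlapped.

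**Figure D3:**
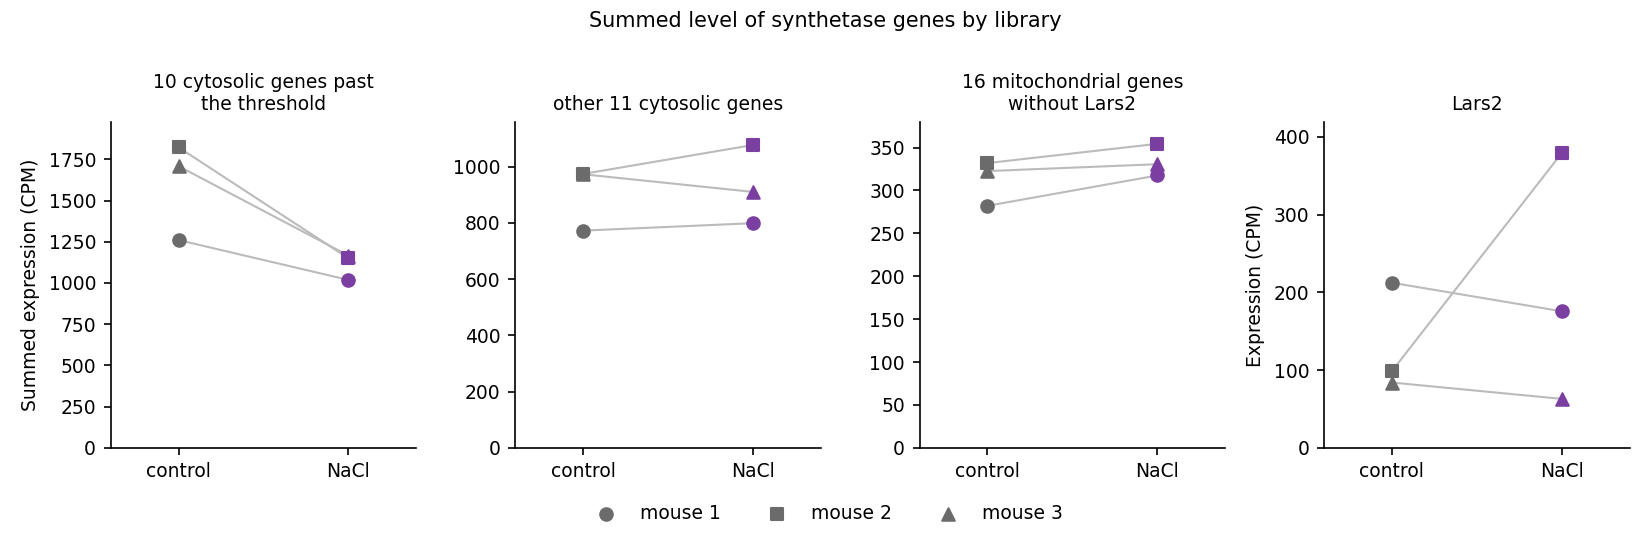
Expression in CPM (vertical axes from 0) summed over the 10 cytosolic genes past the threshold, the other 11 cytosolic genes and 16 mitochondrial genes, and of *Lars2* alone, in each control and NaCl library, with a symbol for each mouse and a line joining its libraries. The sum of the 10 genes is lower in NaCl in each mouse, the next 2 sums overlap between groups, and *Lars2* reaches 379 CPM in NaCl replicate 2.

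The 11 cytosolic genes that did not pass the test lay on both sides of 0. *Tarsl2*, *Farsb*, *Wars1*, *Lars*, *Dars* and *Mars1* had negative log2 fold changes with the block, from -0.28 ± 0.18 (SE) for *Tarsl2*, a second threonyl-tRNA synthetase, to -0.01 ± 0.13 for *Mars1*, the methionyl-tRNA synthetase. *Farsb*, the beta subunit of phenylalanyl-tRNA synthetase, stood at 81.5 ± 15.6 CPM in control cells and at 67.8 ± 13.3 CPM in NaCl-treated cells (SD, n = 3), and its alpha subunit *Farsa* at 60.0 ± 10.4 and 61.2 ± 12.2 CPM. The enzyme needs both subunits, and their log2 fold changes were -0.27 ± 0.12 and 0.03 ± 0.12 (SE, edgeR with block), with adjusted p-values of 0.173 and 0.918. *Lars*, for leucine, stood at 109 ± 19.5 and 90.6 ± 9.21 CPM, and *Dars*, for aspartate, at 98.3 ± 14.2 and 90.2 ± 8.45 CPM (SD, n = 3).

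The cytosolic genes with positive log2 fold changes were *Vars*, *Hars*, *Qars*, *Kars* and *Farsa*. *Vars*, for valine, stood at 80.7, 123 and 123 CPM in control and 103, 170.0 and 139 CPM in NaCl libraries, with a log2 fold change of 0.33 ± 0.12 (SE, edgeR with block, adjusted p = 0.0812). *Hars*, for histidine, stood at 53.7, 65.9 and 70.2 CPM and at 62.4, 94.3 and 81.0 CPM (0.32 ± 0.12, adjusted p = 0.105). Both were higher in NaCl in each mouse while their groups overlapped. *Qars*, for glutamine, was measured at 152, 141 and 138 CPM in control and 163, 194 and 159.8 CPM in NaCl libraries, and its groups were separated (0.26 ± 0.12, adjusted p = 0.192). *Kars*, for lysine, moved by 0.04 ± 0.13 (adjusted p = 0.895). *Hars* overlaps *Hars2* head to head on the opposite strand over 7.97% of its exonic bases, so reads from these bases are uncertain for both genes.

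Position in the multisynthetase complex and enzyme class were set beside the change. Of the 8 complex enzymes, 3 fell, with a median log2 fold change of -0.19 with the block. Of the 13 cytosolic genes outside the complex, 7 fell, with a median of -0.41. The complex scaffolds *Aimp1*, *Aimp2* and *Eef1e1* did not pass the test in either fit. *Aimp1* had 41.4, 43.2 and 40.2 CPM in control and 34.5, 42.8 and 30.9 CPM in NaCl libraries (log2 fold change with block -0.21 ± 0.13 SE, edgeR adjusted p = 0.375), *Aimp2* had 8.53, 14.9 and 14.3 against 8.16, 18.5 and 12.9 CPM, and *Eef1e1* had 14.1, 27.0 and 28.2 against 15.4, 27.2 and 26.8 CPM. The last of these scaffolds gave nearly the same values in both libraries of each mouse. By class, 4 of 9 cytosolic class I genes fell, with a median of -0.26, and 5 of 11 class II genes fell, with a median of -0.28, and *Eprs* belongs to both. Whether complex and class differ in their change was not tested.

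The mitochondrial genes lay mostly on the positive side without passing the test. Of the 17 genes, 12 had positive log2 fold changes, among them *Aars2*, *Pars2*, *Lars2*, *Mars2*, *Vars2*, *Yars2*, *Wars2*, *Sars2*, *Hars2*, *Cars2* and *Iars2*, and *Ears2*, *Rars2*, *Nars2*, *Tars2* and *Fars2* had negative ones, with the block as without it, but the sign of *Fars2* turned with median-ratio scaling (0.01). The values with the block ran from -0.35 ± 0.19 (SE) for *Ears2*, for glutamate, to 0.50 ± 0.18 for *Aars2*, for alanine, and the lowest adjusted p-value from edgeR was 0.0847, for *Aars2*. *Aars2* stood at 7.39, 11.8 and 11.3 CPM in control and 13.7, 18.2 and 10.8 CPM in NaCl libraries, so mouse 3 went against the others. *Pars2*, for proline, stood at 4.89, 5.89 and 6.81 CPM and at 6.37, 9.52 and 8.86 CPM, higher in NaCl in each mouse (0.50 ± 0.20, adjusted p = 0.124).

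*Sars2*, for serine, held 12.1, 11.8 and 10.8 CPM in control and 13.3, 12.8 and 14.1 CPM in NaCl libraries. Its groups were separated by a narrow margin. *Rars2*, for arginine, held 16.5, 21.4 and 20.9 CPM in control and 13.5, 16.2 and 16.5 CPM in NaCl libraries and was lower in each mouse, as was *Ears2* with 8.65 ± 1.62 and 6.65 ± 0.813 CPM (SD, n = 3). *Iars2*, for isoleucine, overlaps genes on the opposite strand over 24.2% of its exonic bases, so some of its counts are uncertain. It varied least of all members, with a ratio of the highest to the lowest library of 1.14. At the other end of the range was *Lars2*.

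*Lars2*, for mitochondrial leucyl-tRNA synthetase, lies on chromosome 9 of mm10 from 123366927 to 123462666 and behaved unlike the other members. It held 212, 98.7 and 84.0 CPM in control and 176, 379 and 63.0 CPM in NaCl libraries, a 6.02-fold range over the libraries, where the next member, *Aars2*, had a range of 2.47-fold. Its log2 ratio was -0.27 in mouse 1, 1.94 in mouse 2 and -0.41 in mouse 3. The log2 fold change was 0.66 ± 0.54 without the block (SE, edgeR, adjusted p = 0.667) and 0.42 ± 0.25 with it (adjusted p = 0.357). Without both libraries of mouse 2 it was -0.33 ± 0.11 (edgeR with block, adjusted p = 0.0254), so its direction rests on that mouse.

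The level of *Lars2* followed that of the 18S ribosomal RNA gene *Rn18s-rs5*, which was set beside it after the values were seen. *Rn18s-rs5* held 1899, 548 and 524 CPM in control and 1631, 2521 and 286 CPM in NaCl libraries, and the order of the 6 libraries was the same for both genes. The ratio of *Rn18s-rs5* to *Lars2* stayed between 4.54 and 9.29. The part of ribosomal RNA reads in the values of *Lars2* was not tested. Without *Lars2*, the mitochondrial genes summed to 282, 332 and 323 CPM in control and to 317, 354 and 331 CPM in NaCl libraries, and their median log2 fold change was 0.18.

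**Figure D4:**
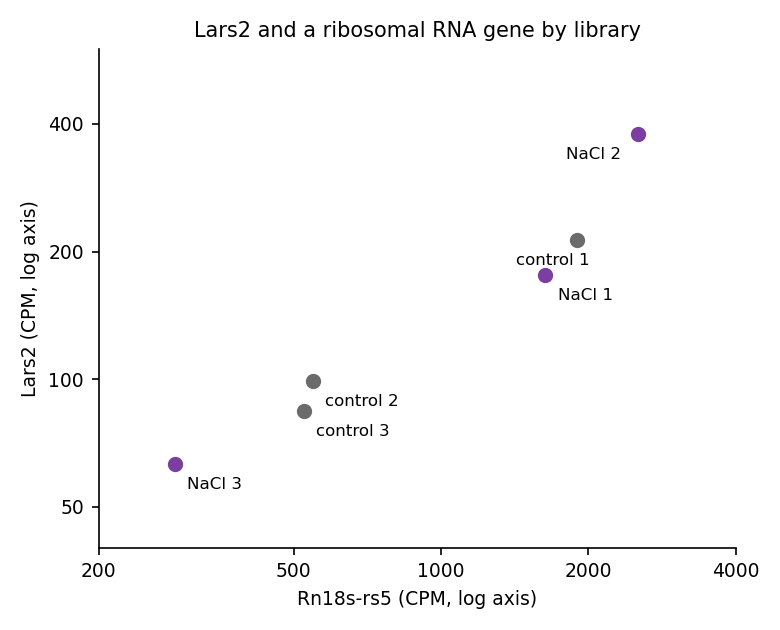
*Lars2* against the ribosomal RNA gene *Rn18s-rs5* in each of the 6 libraries, both in CPM on log axes, with control libraries in grey and NaCl libraries in purple. The libraries have the same order on both axes, from NaCl replicate 3 at 63.0 and 286 CPM to NaCl replicate 2 at 379 and 2521 CPM, and the groups are mixed.

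For 14 amino acids, the genes of the cytosolic and the mitochondrial enzyme were set against each other (for phenylalanine with *Farsa*, for threonine with *Tars*). With the block, the log2 fold change of the cytosolic gene lay below that of the mitochondrial gene for 11 of 14 amino acids, with a median difference of -0.46. It lay below in 3 of 3 mice for 8 amino acids and above in 3 of 3 mice for 0. The greatest difference was that of alanine, at -1.23, where *Aars* fell and *Aars2* stood at 0.50, and the difference was -1.29, -1.39 and -0.95 in mice 1, 2 and 3. For tyrosine it was -0.84, for cysteine -0.70 and for serine -0.63, each below in 3 of 3 mice. For leucine it was -0.68, but mouse 2 alone gave -2.26 and the other mice 0.16 and 0.07, which are positive.

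Arginine was the amino acid where both genes were lower by a like amount, with -0.40 for *Rars* and -0.34 for *Rars2*. Asparagine differed by -0.43, with *Nars* at -0.60 and *Nars2* at -0.17. For histidine, phenylalanine and valine the cytosolic gene lay above the mitochondrial one, by 0.17, 0.06 and 0.08, and none of these held in every mouse. The differences between the genes of a pair were not tested.

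**Figure D5:**
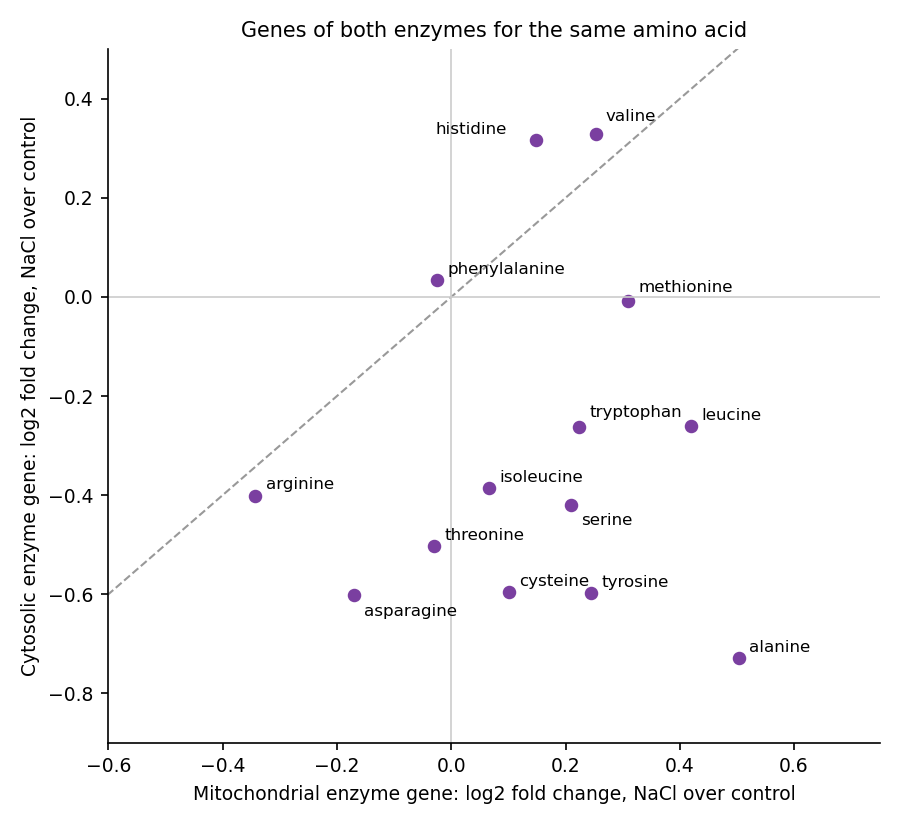
Log2 fold change (NaCl over control, edgeR with the mouse as a block) of the cytosolic gene against that of the mitochondrial gene for each of 14 amino acids, with a dashed line where both are equal. For 11 amino acids the point lies below the line, farthest for alanine, where the difference is -1.23.

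Levels were compared between genes as control CPM per kilobase of the longest annotated protein-coding transcript, which is a rough length where shorter forms are the ones expressed. The median level was 35.3 CPM per kilobase for cytosolic and 5.6 for mitochondrial genes. *Nars* was highest at 123.8, followed by *Rars* at 58.2, *Gars* at 57.5 and *Qars* at 51.4. *Mars2* was lowest at 1.01, and *Tarsl2* was the lowest cytosolic gene at 3.52. The cytosolic gene of a pair had the higher level for 13 of 14 amino acids, with a median ratio of 5.27. The exception was leucine, with a ratio of 0.81, where *Lars2* stood at 33.8 and the next mitochondrial gene, *Iars2*, at 15.1. This exception rests on control replicate 1, where the ratio of *Lars* to *Lars2* was 0.40, against 1.2 and 1.4 in control replicates 2 and 3, and without that library the ratio of the means was 1.29. In NaCl libraries *Nars* was again highest, at 81.2 CPM per kilobase, and *Qars* moved from rank 4 to rank 2 of the 38 genes.

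Genes that work with the charged tRNA were listed beside the enzymes. Of 12 cytosolic partners, among them the elongation factor *Eef1a1*, which brings charged tRNA to the ribosome, 0 passed edgeR's threshold in either fit, 0 had an unadjusted p-value under 0.05 in either fit, and DESeq2 also called 0. Their median log2 fold change was 0.04. Over all genes tested, edgeR called 0.176% lower and 0.478% higher without the block, and 4.30% lower and 4.60% higher with it. DESeq2 called 1.21% lower and 1.91% higher. At an unadjusted p-value under 0.05, edgeR found 6.01% lower and 6.63% higher without the block. With the block, edgeR found 3507 of the 15903 genes at that level in either direction. Of 9 mitochondrial partners, such as the elongation factor *Tufm*, 0 passed in edgeR in either fit and 0 in DESeq2, 1 was lower at an unadjusted p-value under 0.05 without the block, 1 was lower and 1 higher at that level with it, and the median was 0.16. So 0 calls among 12 or among 9 genes is near the background of adjusted calls. Of 8 genes for mitochondrial ribosomal proteins and translation factors, only *Mrps6* passed in edgeR in either fit. It was higher, with a log2 fold change of 2.16 ± 0.20 (SE, edgeR without the block, adjusted p = 0.0024). The median of the 8 genes without the block was -0.01. Bases shared with other genes were examined for the members only, so the part of another gene in the *Mrps6* counts was not tested.

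The amino acid response list was chosen like the members with results of these data known. Of its 19 genes, 4 were lower and 0 higher past the threshold in edgeR without the block, beside 0.176% of all genes lower and 0.478% higher. With the block 11 were lower and 1 higher, beside 4.30% lower and 4.60% higher, and the other 7 did not pass. Its median log2 fold change was -0.45 without the block and -0.50 with it. The 4 were *Asns*, *Chac1*, *Trib3* and *Phgdh*, whose reads can be shared with its pseudogene *Gm7901*. With the block these were joined by *Atf4*, the transporter genes *Slc7a5* and *Slc3a2*, the serine synthesis gene *Psat1*, *Sesn2*, *Impact* and *Eif2ak4*, which encodes the kinase that senses uncharged tRNA, while *Cebpb* rose. *Atf4* held 200.2, 289 and 304 CPM in control and 143, 147 and 179 CPM in NaCl libraries, without overlap. Its log2 fold change was -0.74 ± 0.12 with the block (SE, edgeR, adjusted p = 0.00017) and -0.76 ± 0.18 without it (adjusted p = 0.105), close to that of *Aars*. *Asns*, for asparagine synthetase, held 71.5, 138 and 121 CPM in control and 23.6, 25.7 and 28.7 CPM in NaCl libraries, a log2 fold change of -2.09 ± 0.23 (SE, edgeR without the block, adjusted p = 0.00699).

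Because ATF4 binds the C/EBP-ATF response element, promoters were searched for its core, TGATGNAA (N is any base), on both strands of the 250 bases before each start in RefSeq (GRCm38.p6). An entry was found for 14 cytosolic and 14 mitochondrial genes. The core was present in 3 of the 14 cytosolic genes and in 0 of the 14 mitochondrial genes, beside 3.91% of the 27025 genes with a promoter. All 3, *Aars*, *Gars* and *Tars*, were among the 10 genes that fell, of which 7 had an entry. The windows below show the match with up to 20 bases on each side, in the direction of transcription, with the match in capitals. The match reads as the core on the opposite strand in each. It ends 105 bases before the RefSeq start in *Aars*, 23 in *Gars* and 8 in *Tars*. That start lies 698 bases inside *Aars* as GENCODE M21 places the gene, so its window is within the span given above, whereas the starts of *Gars* and *Tars* differ from GENCODE M21 by 6 and 7 bases. The windows are chr8:111033710-111033757 on the plus strand, chr6:55037951-55037998 on the plus strand and chr15:11399659-11399693 on the minus strand.
Aars: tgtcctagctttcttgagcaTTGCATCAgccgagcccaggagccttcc
Gars: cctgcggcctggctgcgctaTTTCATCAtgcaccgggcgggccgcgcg
Tars: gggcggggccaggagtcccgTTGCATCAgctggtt
A match is a description of the letters in this window, and binding was not measured.

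*Wars1*, for tryptophanyl-tRNA synthetase, is known as a gene that interferon gamma induces, so 12 interferon gamma response genes were listed beside it, of which 11 were tested. Here *Wars1* held 59.2, 72.6 and 69.4 CPM in control and 51.9, 66.3 and 49.6 CPM in NaCl libraries, lower in each mouse with overlapping groups (log2 fold change -0.26 ± 0.12 SE, edgeR with block, adjusted p = 0.204). Of the 11 genes, *Cxcl10* was higher past the threshold with and without the block, and the median log2 fold change was 0.14 without the block.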

How the data were processed

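The authors trimmed single-end reads with fastp 0.20.0, aligned them with STAR 2.7.10b to mm10 and deposited unscaled read counts per gene, plus a signal table in which each count was divided by a DESeq2 1.40.2 size factor. The deposited signal of each gene equalled its count divided by 1 factor per library (largest relative deviation 5.0e-15), so only the counts were tested, and the signal table gave symbols and gene types. Versions come from the submitters' processing notes. All 6 libraries were mapped by their labels, and 0 columns were left unmapped. GENCODE vM32, named in the methods, is an annotation of a different build, and positions, lengths and overlaps therefore come from GENCODE M21 (mm10) by gene identifier.

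The 15903 genes whose counts summed to 10 or more entered edgeR 4.0.16 (R 4.3.3, glmQLFit, glmQLFTest, TMM, NaCl against control). P-values were adjusted by Benjamini-Hochberg over all of them with a threshold of 0.05. Total counts of 4088065 to 20123570 per library set the precision. The SE is the log2 fold change divided by the square root of F. The methods name no term for the mouse, so the fit has none. Labels give the mouse of each library, both groups come from the same animals, and deviations from the group means correlated across genes by 0.43, 0.15 and 0.22 within mice 1, 2 and 3, against -0.35 to 0.12 for other pairs. These correlations are a description only. Deviations from a group mean cancel within the group, so positive values within mice push the other pairs down. The 0.15 of mouse 2 was also close to the 0.12 of control replicate 3 with NaCl replicate 2. By the labels the mouse pairs the libraries, and a fit with mice as a replicate block stands beside each result that it changes.

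Alternatives were DESeq2 1.42.0 and limma-voom 3.58.1, other scaling and filters, thinning, a GC and length correction, and leaving out libraries or mice. Scripts were tested on simulated counts. Values in all libraries were given for each member past the threshold in either fit, the 3 scaffolds, *Atf4* and *Asns*, and other list genes were named only past the threshold. Further members with values, and *Eef1a1*, *Tufm* and *Rn18s-rs5*, were chosen after values were seen. Members and lists were chosen with earlier results of these data known. Values of 1 mitochondrial gene, and of its pair, are not reported here. Protein sequences were not used here. Figures were drawn with matplotlib 3.10.9.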

Additional observations from a re-analysis of the deposited data

How the results depend on the processing

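The settings changed how many genes passed the test. Against 0 cytosolic genes lower past the threshold in edgeR without the mouse, the replicate block gave 10, DESeq2 gave 3, DESeq2 with the replicate block 7, a minimum total count of 1 gave 5, the block with libraries thinned to 4088065 counts 7, and the block with a correction for GC content and length 11. The last of these also called 2 cytosolic genes, *Hars* and *Vars*, and 1 mitochondrial gene higher. With the block, leaving out mouse 1, 2 or 3 gave 5, 9 and 5 cytosolic genes lower, and *Lars2* moved between the sides: 1 mitochondrial gene higher without mouse 1, 1 lower without mouse 2 and 2 higher, with *Aars2*, without mouse 3. A minimum total count of 1 called 1 mitochondrial gene, *Lars2*, higher. Leaving out 1 library without the block gave 0 to 2 cytosolic genes lower, a cytosolic median log2 fold change of -0.41 to -0.22 and a mitochondrial median of 0.089 to 0.24. Among the members and the listed genes, the replicate block changed no edgeR call beside these and those of the amino acid response and marker genes. Over all genes tested it changed many more, from 28 lower and 76 higher without it to 684 lower and 732 higher with it. The cause of these differences was not tested. For settings other than edgeR with or without the block and DESeq2 without it, the share of all genes called is not given here. The counts in those settings therefore do not show how the members stand beside all genes.

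Over 20 settings and 38 genes, 650 of 760 values kept their direction and their side of the threshold, 72 gained a call and 39 turned in sign, over 8 genes, with 1 value, that of *Lars2* without mouse 2, in both counts, and no call could be lost because none of the 38 passed in edgeR without the block. None of the 10 genes that fell with the block turned in sign in any of these settings. When 1 library was left out, the log2 fold change ran from -0.14 to 0.13 for *Farsa*, -0.11 to 0.15 for *Kars*, -0.20 to 0.11 for *Mars1*, -0.059 to 0.18 for *Cars2*, -0.21 to 0.18 for *Fars2*, -0.11 to 1.19 for *Lars2* and -0.15 to 0.051 for *Tars2*. With the block and a mouse left out, the turned values were -0.013 and -0.031 for *Farsa* (mice 1 and 2), -0.11 for *Kars*, -0.0035 for *Cars2* and -0.33 for *Lars2* (mouse 2), and 0.15 for *Mars1*, 0.19 for *Fars2*, 0.016 for *Nars2* and 0.044 for *Tars2* (mouse 3). *Mars1* was 0.0017 both in DESeq2 with the block and with the block and thinning. Thinning gave -0.019 for *Cars2*, 0.019 for *Fars2* and 0.14 for *Tars2*, and with the block -0.023, 0.0006 and 0.13. *Fars2* was 0.0089 in DESeq2, 0.0094 with median-ratio size factors, 0.014 with filterByExpr and 0.011 in limma-voom.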
